A study of Arabidopsis thaliana with 8 samples.

Results

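The genes described here are 10 Arabidopsis thaliana loci that carry nitrate, ammonium or related anions across membranes, chosen by gene ID out of 3691 genes listed in the deposited tables. They are NRT1.5 (AT1G32450), NRT1.8 (AT4G21680), NRT1.9 (AT1G18880), NRT2.1 (AT1G08090), NRT2.5 (AT1G12940), NRT2.6 (AT3G45060), SLAH1 (AT1G62280), SLAH3 (AT5G24030), AMT1;1 (AT4G13510) and AMT2;1 (AT2G38290). All 10 were found in the root table and in the shoot table. The study measured transcripts in wild-type plants of the ecotype Col-0 that shared a divided plate with a paper disc carrying either water or the volatile 2,5-dimethylpyrazine (2,5-D) at 100 µM. The 4 groups were root with water, root with 2,5-D, shoot with water and shoot with 2,5-D, with 2 libraries in each and 8 in all. The labels give the exposure as 24 hours, and their growth protocol also names 14 days in the plate, so the time of contact is not settled by them. They do not say whether the replicates of a group were grown separately, and the p-values therefore reflect only how far these libraries differ, which may be technical.

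Roots take nitrate from the soil through low-affinity carriers of the NRT1 (NPF) family and high-affinity carriers of the NRT2 family, and take ammonium through AMT carriers. Nitrate that is not used in the root is loaded into the xylem and moves to the shoot with the water stream, and carriers in the xylem parenchyma can draw it back on the way. The balance of loading, retrieval and uptake sets how much nitrogen stays in the root, and it is known to shift with nitrogen supply and stress.

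Values are the authors' normalized expression per gene, which behaved as scaled by gene length and by the depth of each library, so that levels of different genes can be set beside each other. Whether the authors scaled the root and shoot tables in any further way is not known, and this limit applies to each organ difference below. The organ tests were to be run only if low values lay on steps of 1 read in each library; a first search did not find this in either root 2,5-D library, and a search with settings changed after that did. Listed genes summed to 252870 to 343912 per library, and the libraries' relative depth was estimated at 83.9% of the deepest or more. Replicates correlated across the listed genes at r = 0.946 in shoot water and at 0.988 to 0.996 in the other groups, computed on log2 values. Shoot water was the least even pair, with 553 genes over 2-fold apart (on value + 1) against 31 or fewer in each other pair. Of the listed genes, 2 had overlapping water and 2,5-D libraries in both organs, so the tables are treated as lists picked on this treatment, and treatment calls are not independent evidence of a response. The organ labels matched their markers: 8 of 13 leaf photosynthesis genes were in the tables and summed to 168 to 228 in root libraries, to 19700 to 20500 in shoot water and to 10900 to 12800 in shoot with 2,5-D. Endodermis markers (4 of 8 in the tables) summed to 67.5 to 153 in root and to 2.01 to 4.47 in shoot, and WOX5, the single root marker of 5 in the tables, to 1.93 to 4.83 in root and 0 to 0.29 in shoot. No root hair marker of 4 was in the tables.

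In water the order of the transporters differed between the organs. NRT1.5 stood highest in root, at a mean of 293 ± 90.2 (SD, n = 2), above every other of the 10 genes in both libraries. NRT1.8 (68.4 ± 47.8), NRT1.9 (59.5 ± 12), SLAH3 (42.3 ± 27.6) and AMT2;1 (34.0 ± 3.29) followed, each overlapping its neighbour in this order. AMT1;1 (24.2 ± 0.672) came next and did not overlap them except for SLAH3, and NRT2.1, SLAH1, NRT2.6 and NRT2.5 had means of 3.35 or lower. In shoot water the order began with AMT1;1 at 136 ± 22.0, above AMT2;1 (50.5 ± 7.87) and NRT1.8 (45.3 ± 14.7), which overlapped. SLAH3 (23.3 ± 11.1) and NRT1.5 (16.0 ± 4.21) overlapped as well, followed by NRT2.5 at 11.6 ± 0.891 and NRT1.9 at 4.85 ± 0.785, and NRT2.1, SLAH1 and NRT2.6 had means under 1. Among all listed genes, NRT1.5 lay at percentiles 92.5 and 96.0 in root water and 57.2 and 46.4 in shoot water. NRT2.5 lay at percentiles 1.8 and 2.1 in root water and 44.0 and 44.8 in shoot water.

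**Figure D1:**
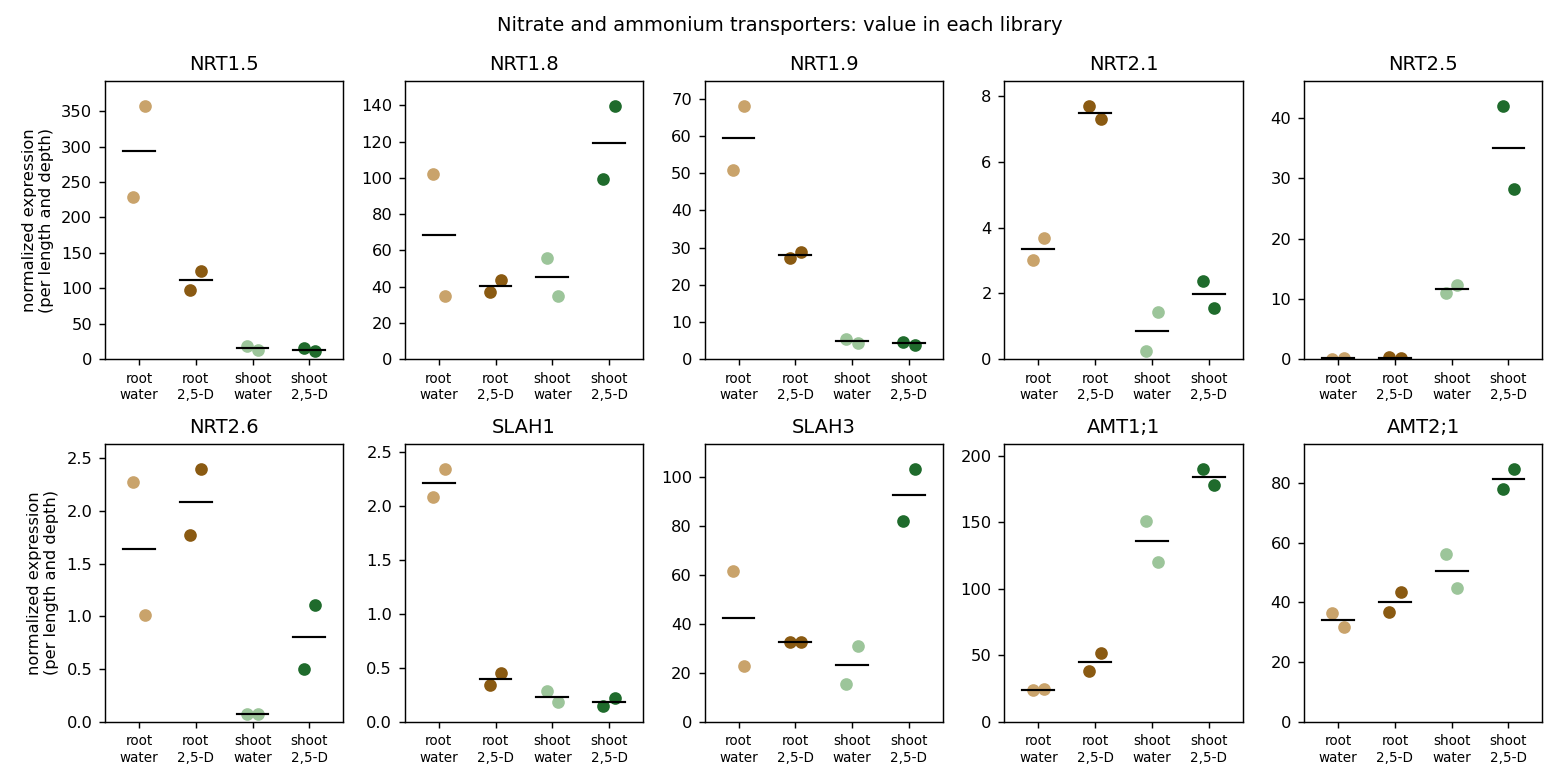
Normalized expression of each transporter (vertical axis, linear, its own scale per panel) in the 4 groups; points are libraries and bars are group means. NRT1.5 and NRT1.9 are high in root and lower there with 2,5-D, while NRT2.5 and AMT1;1 are high in shoot.

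Root and shoot were compared with limma on log2(value + 1) over all 8 libraries, with Benjamini-Hochberg adjustment over the 3602 listed genes tested; a difference passes at an adjusted p under 0.05. In water, 4 of the 9 transporters tested were higher in root (NRT1.5, NRT1.9, NRT2.1 and NRT2.6) and 3 were lower there (NRT2.5, AMT1;1 and AMT2;1); NRT2.5 and NRT2.6 passed the filter through the organ in which they are high. Of all genes tested, 46.2% were called higher in root and 21.3% lower, 67.5% in all, so the number of transporters called is near the background. Under 2,5-D the same 4 were higher in root and 5 were lower, NRT1.8 and SLAH3 being added, beside 37.1% and 27.6% of all genes (64.7% in all). The median difference of the 9 was 0.75 in water and -1.01 under 2,5-D, and that of all genes tested 0.48 and 0.15. All 4 root libraries lay above all 4 shoot libraries for 4 transporters and below them for 3, as they did for 31.5% and 18.6% of all listed genes (50.1% in all). Between the water groups alone, root lay above shoot for 5 of all 10 and below for 3, beside 55.5% and 25% of listed genes (80.5% in all), and between the treated groups above for 5 and below for 5, beside 49.9% and 40% (89.8% in all). Rescaling all libraries to equal medians moved the median difference of all genes in water from 0.48 to 0.10, and the share of calls that were higher in root from 68.4% to 52.0%, while the number of transporters called in water was the same.

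**Figure D2:**
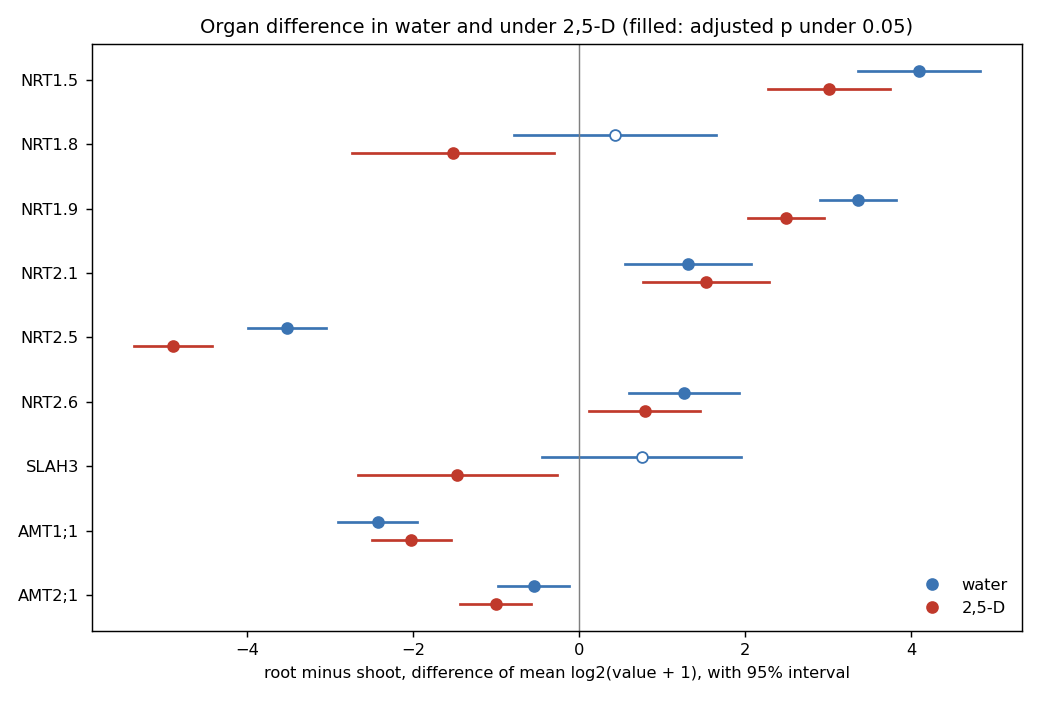
Root minus shoot difference of mean log2(value + 1) for the 9 transporters tested, with 95% intervals from the fit of 8 libraries; values right of 0 are higher in root and filled points have an adjusted p under 0.05. With 2,5-D the points of NRT1.8 and SLAH3 lie left of 0, and those of NRT1.5 and NRT1.9 stay right of it.

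NRT1.5 (NPF7.3) is the carrier of root pericycle cells that moves nitrate towards the xylem vessels. Its values were 229.34 and 356.94 in root water and 97.34 and 124.84 in root with 2,5-D. In shoot they were 19.01 and 13.05 in water and 15.22 and 10.81 with 2,5-D. Every root library lay above every shoot library, the treated root libraries lay below the water ones, and the shoot groups overlapped. Root exceeded shoot 18.3-fold in water (log2 difference 4.1, SE 0.31, adjusted p = 3.71e-05) and 8.54-fold under 2,5-D (log2 difference 3.01, adjusted p = 0.000158). In root the transcript fell by 1.37 on the log2 scale (SE 0.23, adjusted p = 0.00112), and in shoot its log2 change was -0.28 (adjusted p = 0.445). The shift of the organ difference with 2,5-D, which is the root change minus the shoot change, was -1.09 (SE 0.43, adjusted p = 0.0944) and did not pass. It lay between -1.41 and -0.77 with any one library left out. A fit with a library left out loses the spread of that pair, so a pass in such a fit would not make a result firmer.

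Xylem and pericycle markers that were in the tables were lower in root with 2,5-D, like NRT1.5. The tables are treated as lists picked on this treatment, so markers absent from them may be ones that did not respond. The markers present therefore do not stand for the whole tissue. Of 10 xylem and pericycle markers 5 were in the tables, and all 5 were lower in root with 2,5-D, as were 22.5% of all genes tested (61.5% were called in either direction): SKOR, a potassium channel of xylem loading, SHR, a transcription factor of the stele, and IRX3, IRX5 and XCP2, genes of xylem wall formation and xylem cell death. Their summed values went from 102 to 110 in root water to 53.7 to 65.7 with 2,5-D, and none was at 0. The 4 endodermis markers were lower too, their sum going from 145 to 153 down to 67.5 to 86.1. Over the summed xylem and pericycle markers, NRT1.5 stood at 2.25 and 3.25 in root water and at 1.81 and 1.9 with 2,5-D, a ratio chosen after the values were seen. XCP2 gave most of that sum (66.49 and 73.51 in root water, 38.45 and 45.84 with 2,5-D), so the ratio mainly follows XCP2. By group means in root, SHR fell 2.08-fold, IRX3 1.86-fold, IRX5 1.8-fold and XCP2 1.66-fold, beside 2.64-fold for NRT1.5. SKOR fell 8.27-fold, but from low values (2.49 and 3.05 in water, 0.33 and 0.34 with 2,5-D). It passed the filter through its water libraries, so its call is conditioned on that difference. In whole roots, fewer cells of a type and less RNA per cell cannot be told apart, and the part of these tissues in the NRT1.5 result was not tested.

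SLAH1, an anion channel subunit of the root stele that works with SLAH3 in loading chloride into the xylem, had the same order of groups at low levels. It was at 2.08 and 2.34 in root water and 0.34 and 0.45 in root with 2,5-D. In shoot it had values of 0.28 and 0.18 in water, then 0.15 and 0.22 with 2,5-D, an estimated 2.9 to 5.9 reads per library. It fell 5.59-fold in root (log2 change -1.2, SE 0.19, adjusted p = 0.000791), a change that stood at -2.23 with a pseudocount of 0.1. It passed the filter in root through its water libraries, was not in the fit without water replicate 2, and rests on an estimated 7.0 and 8.9 reads in the treated libraries; with no filter the change had an adjusted p of 0.000335. Its mean over the 8 libraries was below the filter of 1, so organ differences were not tested in the planned fit. Without that filter, the root minus shoot difference was 1.38 in water (adjusted p = 4.96e-05) and 0.23 under 2,5-D (adjusted p = 0.0996), and the shift was -1.15 (adjusted p = 0.0119).

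NRT1.8 (NPF7.2) of the xylem parenchyma takes nitrate back out of the xylem sap. Its values were 102.27 and 34.62 in root water, and 37.2 and 43.91 in root with 2,5-D. In shoot they were 55.67 and 34.85 in water and 99.54 and 139.54 with 2,5-D. The root and shoot water groups overlapped, while under 2,5-D both shoot libraries lay above both root ones. The root minus shoot difference was 0.43 in water (SE 0.51, adjusted p = 0.476) and -1.52 under 2,5-D (SE 0.51, adjusted p = 0.0351), where the shoot mean was 2.95 times the root mean. The shift of -1.95 (SE 0.71) had an adjusted p of 0.0776. The water value turned on the root water pair: the difference was -0.34 without replicate 1 and 1.2 without replicate 2. With any one library left out, the shift lay between -2.72 (without root water replicate 2) and -1.18 (without root water replicate 1). The call under 2,5-D was lost without any one of the 4 treated libraries (adjusted p = 0.0711 to 0.157).

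SLAH3, a nitrate and chloride channel known from guard cells and from root stele, had a like pattern. In root it had values of 61.79 and 22.81 in water, then 32.52 and 32.75 with 2,5-D. In shoot it had values of 15.43 and 31.15 in water, then 82.11 and 103.32 with 2,5-D. The water groups of the organs overlapped, and with 2,5-D both shoot libraries were above all root libraries. The organ difference was 0.75 in water (SE 0.50, adjusted p = 0.219) and -1.47 under 2,5-D (adjusted p = 0.0376), and the shift of -2.22 (SE 0.70) had an adjusted p of 0.0532. The water difference was 1.45 without root water replicate 2 and 1.23 without shoot water replicate 2. The call under 2,5-D was lost without any one treated library (adjusted p = 0.089 to 0.152). The shift passed with weights per group (adjusted p = 0.0491). With any one library left out, it lay between -2.92 (without root water replicate 2) and -1.52 (without root water replicate 1). Of the 10 transporters, SLAH3 and NRT1.8 were the next closest pair of profiles after NRT1.5 and NRT1.9, at a root-mean-square difference of 0.494 on the log2 scale, and NRT1.8 was 1.12 to 1.66 times SLAH3 in every library but shoot water replicate 1 (3.61 times).

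NRT1.9 (NPF2.9), a nitrate carrier of root phloem companion cells, was likewise far higher in root. It stood at 50.98 and 68.01 in root water, and at 27.32 and 28.92 with 2,5-D. In shoot its values were 5.4 and 4.29 in water and 4.69 and 3.68 with 2,5-D. All root libraries were above all shoot libraries, and the treated shoot libraries overlapped the water ones. Root exceeded shoot 12.3-fold in water (log2 difference 3.36, SE 0.19, adjusted p = 1.05e-05) and 6.72-fold under 2,5-D (2.5, adjusted p = 3.97e-05). It fell in root by 1.04 on the log2 scale (adjusted p = 0.0013), and in shoot its log2 change was -0.17 (adjusted p = 0.474). The shift of -0.87 (SE 0.27, adjusted p = 0.0499) passed narrowly and missed at equal medians (-0.60, adjusted p = 0.159), with a pseudocount of 0.1 (adjusted p = 0.0796), without the filter, the trend or equal weights (0.0503 to 0.0728), and without any one library other than root water replicate 1 or shoot water replicate 1 (0.0505 to 0.159). Of 5 phloem markers 3 were in the tables, none at 0 in any group. SUC2 and BAM3 were lower in root with 2,5-D and NAKR1 did not pass (log2 change -0.18, adjusted p = 0.328), and the sum went from 60.7 to 69.0 down to 36.5 to 37.5; their part in the NRT1.9 result was not tested.

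Of the high-affinity nitrate carriers, NRT2.1, the main one of root epidermis and cortex, was low in all groups. It has a close neighbouring copy, NRT2.2, and how the authors' counting divided reads between such copies is not known. Its values were 3.03 and 3.68 in root water and 7.7 and 7.32 in root with 2,5-D. In shoot it had values of 0.25 and 1.44 in water, then 2.39 and 1.57 with 2,5-D. Root libraries all lay above shoot libraries, and within each organ the treated libraries lay above the water ones. The organ difference was 1.31 in water (SE 0.32, adjusted p = 0.00959) and 1.53 under 2,5-D (adjusted p = 0.00491), and the shift of 0.21 (adjusted p = 0.730) did not pass. It rose in root 2.24-fold (log2 change 0.97, SE 0.17, adjusted p = 0.00128), with an adjusted p of 0.0501 in the fit of all 8 libraries, and its shoot change of 0.76 (SE 0.41) had an adjusted p of 0.210. With a pseudocount of 0.1 the water difference was 2.23 (adjusted p = 0.0222), and it missed without root water replicate 2 (1.21, adjusted p = 0.0541). The shift was -0.33 with that pseudocount and -0.27 without shoot water replicate 2.

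NRT2.5, a carrier induced by nitrogen starvation in the root hair zone and in the minor veins of leaves, was measured almost only in shoot. In root it had values of 0.08 and 0.12 in water, then 0.26 and 0.12 with 2,5-D, which is an estimated 2.1 to 6.9 reads per library. In shoot it had values of 11.01 and 12.27 in water, then 41.97 and 28.2 with 2,5-D. Both treated shoot libraries lay above both water ones, and all shoot libraries lay above all root ones. The root minus shoot difference was -3.52 in water (SE 0.20, adjusted p = 9.69e-06) and -4.90 under 2,5-D (adjusted p = 3.45e-06); with so few root reads these values depend on the pseudocount, and they were -5.88 and -6.94 with 0.1. The shift was -1.38 (SE 0.28, adjusted p = 0.0193). NRT2.5 entered this fit through its shoot values and was below the filter in the root table, where the change without the filter was 0.11 (adjusted p = 0.448), so the shift holds little beyond the shoot change. It was -1.0 at equal medians (adjusted p = 0.0422), and it missed with a pseudocount of 0.1 (-1.06, adjusted p = 0.127) and without root water replicate 2, either treated root library or shoot 2,5-D replicate 1 (adjusted p = 0.0551 to 0.076). Within shoot, the log2 change was 1.49 (SE 0.24, adjusted p = 0.0524).

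NRT2.6, an NRT2 carrier studied mainly for its response to microbes, showed root values of 2.28 and 1.01 in water and 1.77 and 2.4 with 2,5-D. In shoot it was at 0.07 in both water libraries, an estimated 2.0 reads each, and at 0.5 and 1.11 with 2,5-D, an estimated 13.0 and 27.0 reads. Water libraries of the organs were apart, and both treated shoot libraries lay above the water ones. The organ difference was 1.26 in water (SE 0.28, adjusted p = 0.00651; 3.26 with a pseudocount of 0.1) and 0.79 under 2,5-D (adjusted p = 0.0427). NRT2.6 passed the filter through root, and it was not in the fit without root water replicate 1 or root 2,5-D replicate 2; with no filter the adjusted p was 0.00596 in water and 0.0391 under 2,5-D. The difference under 2,5-D missed with that pseudocount (adjusted p = 0.0522), at equal medians (adjusted p = 0.0527), without root 2,5-D replicate 1 (adjusted p = 0.0815) and without shoot 2,5-D replicate 1 (adjusted p = 0.213). The shift was -0.48 (adjusted p = 0.382), and -1.91 with a pseudocount of 0.1 (adjusted p = 0.0891), so its size depends on the pseudocount. In shoot it was below the filter, and without the filter its log2 change was 0.73 (adjusted p = 0.069).

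The ammonium carriers were both shoot-biased. AMT1;1, a high-affinity carrier of ammonium uptake, was at 23.7 and 24.65 in root water and 38.23 and 51.73 in root with 2,5-D. In shoot it had values of 151.25 and 120.11 in water, then 190.13 and 177.74 with 2,5-D. Shoot libraries lay above all root libraries, and treated libraries above water ones in each organ. Shoot exceeded root 5.61-fold in water (root minus shoot log2 difference -2.43, SE 0.20, adjusted p = 5.9e-05) and 4.09-fold under 2,5-D (-2.02, adjusted p = 0.000136), and the shift of 0.41 (SE 0.28, adjusted p = 0.302) did not pass. It rose in root by 0.85 on the log2 scale (SE 0.18, adjusted p = 0.00316), though without 2,5-D replicate 2 the adjusted p was 0.0581. The shoot change was 0.44 (adjusted p = 0.15) and stood at 0.03 with equal medians.

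AMT2;1, of a separate subfamily linked to movement of ammonium from root to shoot, was at 36.37 and 31.72 in root water and 36.66 and 43.46 in root with 2,5-D. In shoot it had values of 56.11 and 44.98 in water, then 78.18 and 84.78 with 2,5-D. All shoot libraries lay above all root ones, though by little in water. The root minus shoot difference was -0.55 in water (SE 0.18, adjusted p = 0.0295) and -1.01 under 2,5-D (adjusted p = 0.00225), and the shift of -0.46 (adjusted p = 0.199) did not pass. The water difference was -0.96 at equal medians (adjusted p = 0.00502). It missed with weights per group (adjusted p = 0.0875) and without either root water library, shoot water replicate 1 or either shoot 2,5-D library (adjusted p = 0.0534 to 0.128). The root change of 0.23 had an adjusted p of 0.255 and the shoot change of 0.69 one of 0.0665. With equal medians the shoot change was 0.27 (adjusted p = 0.418) and the shift -0.13 (adjusted p = 0.73).

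Within each organ, 2,5-D was compared with water in that organ's table alone. In root 2 of 9 transporters tested were higher (NRT2.1 and AMT1;1) and 3 lower (NRT1.5, NRT1.9 and SLAH1), beside 39% and 22.5% of 3487 genes tested (61.5% in all), and NRT2.5 was not tested; SLAH1 passed the filter through its water libraries. The 5 calls among 9 transporters are near the background of all calls. The median change of the 9 was -0.20 and that of all genes 0.26. In shoot limma called 0 of 8 transporters and 0% of 3376 genes. At an unadjusted limma p under 0.05, 4 of the 8 were higher (NRT1.8, NRT2.5, SLAH3 and AMT2;1) and 0 lower. Of the 3376 genes 1016 were higher and 648 lower, so the count of transporters is near the background of all calls. The smallest adjusted p was 0.0524. In the fit of all 8 libraries 3 of the 9 transporters tested were called higher with 2,5-D in shoot. They were NRT2.5 (adjusted p = 0.00763), SLAH3 (adjusted p = 0.0204) and AMT2;1 (adjusted p = 0.0229). Of the 3602 genes in that fit 1101 were higher and 588 lower, so the count of transporters does not exceed the background of all calls. With equal medians NRT2.5 alone was called (1.09, adjusted p = 0.0493), beside 69 genes higher and 476 lower of the 3376 tested. The median change of all genes in shoot went from 0.37 to -0.02 with that rescaling. Summed markers differed between the shoot groups as well. Leaf photosynthesis genes had the lower sums with 2,5-D given for the organ check. The sum of the 3 phloem markers was 80.9 to 85.5 in water and 130 to 134 with 2,5-D. SUC2 made up most of it, with means of 69.8 in water and 112 with 2,5-D. NAKR1 had means of 9.05 and 15.7, and BAM3 was nearly unchanged at 4.32 and 4.52. The 5 xylem and pericycle markers summed to 48.5 to 57.3 in water and 60.5 to 61.6 with 2,5-D. In limma 0 of the markers tested in shoot passed, and their part in the shoot values of NRT1.8, SLAH3 and NRT2.5 was not tested. Treated libraries lay above water ones without overlap for 7 of 10 transporters in shoot and below them for 0, as for 49.7% and 25.9% of all listed genes (75.7% in all). In root they lay above for 3 and below for 3, as for 51.3% and 31.5% (82.8% in all).

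**Figure D3:**
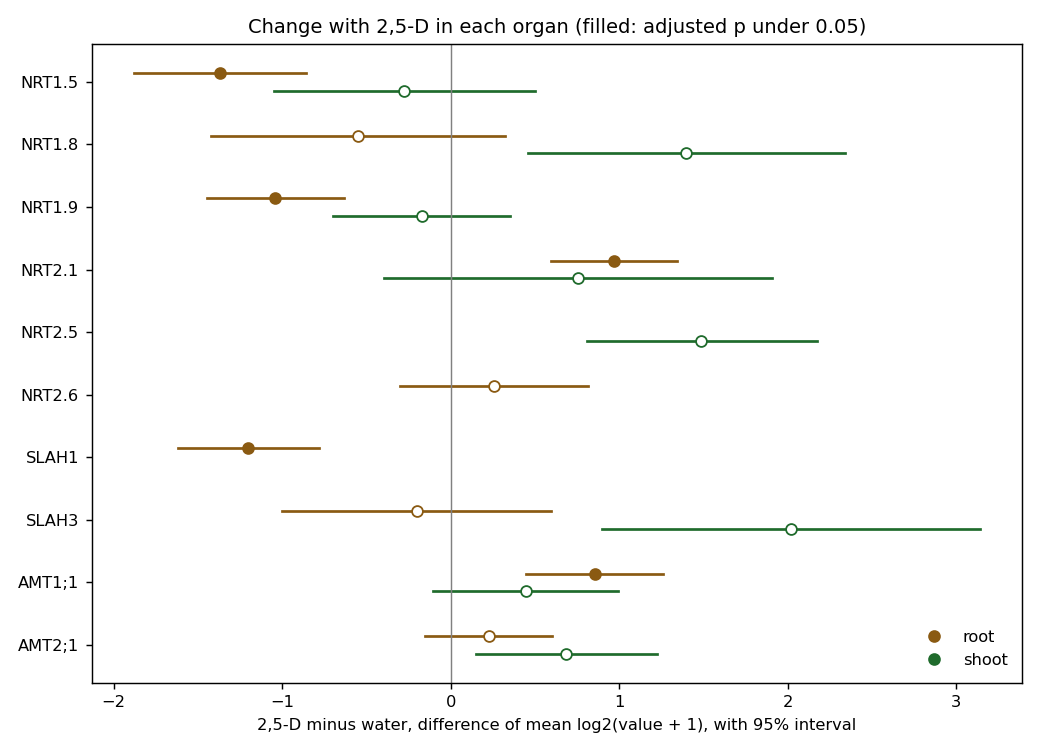
Change with 2,5-D of mean log2(value + 1) in root (brown) and shoot (green) with 95% intervals from the fit of each table; filled points have an adjusted p under 0.05 and genes below the filter have no point. NRT1.5, NRT1.9 and SLAH1 lie left of 0 in root, and SLAH3, NRT2.5 and NRT1.8 have the 3 largest values in shoot, none of which passed.

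The shift of the organ difference passed for 2 of the 9 transporters tested, NRT1.9 and NRT2.5. It was negative for both, and 0 passed with a positive shift. A negative shift means that the signed log2 change was lower in root than in shoot. NRT1.9 fell more in root (-1.04, beside -0.17 in shoot), while the NRT2.5 value comes mainly from its rise in shoot (1.49). Of the 3602 genes tested 22.5% passed with a negative shift and 10.4% with a positive one (33% in all). The count of transporters does not exceed the background. With equal medians the share of calls with a positive shift went from 31.6% to 69.3% and the median of all genes from -0.16 to 0.14. With that rescaling 1 transporter passed, NRT2.5. The organ and treatment comparisons share libraries, so their values are side by side here and are not separate evidence.

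Ratios within a library are free of any scaling between libraries or tables. NRT1.5 to NRT1.8, the transcripts of a loading and a retrieving carrier, was 2.24 and 10.3 in root water and 2.62 and 2.84 in root with 2,5-D. In shoot it was 0.341 and 0.374 in water and 0.153 and 0.0775 with 2,5-D. The NRT1.5 transcript was above that of NRT1.8 in every root library and below it in every shoot library, and the treated shoot libraries lay below the water ones, while the treated root libraries lay between the water ones. The ratios are given as values per library, with no test. AMT1;1 to AMT2;1 was 0.652 and 0.777 in root water and 1.04 and 1.19 in root with 2,5-D. It was 2.7 and 2.67 in shoot water and 2.43 and 2.1 with 2,5-D, so the organs were nearer to each other when treated. NRT2.1 to NRT2.5 was 29.6 to 61.0 in root and 0.0227 to 0.117 in shoot, with few reads of NRT2.5 behind the root values.

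**Figure D4:**
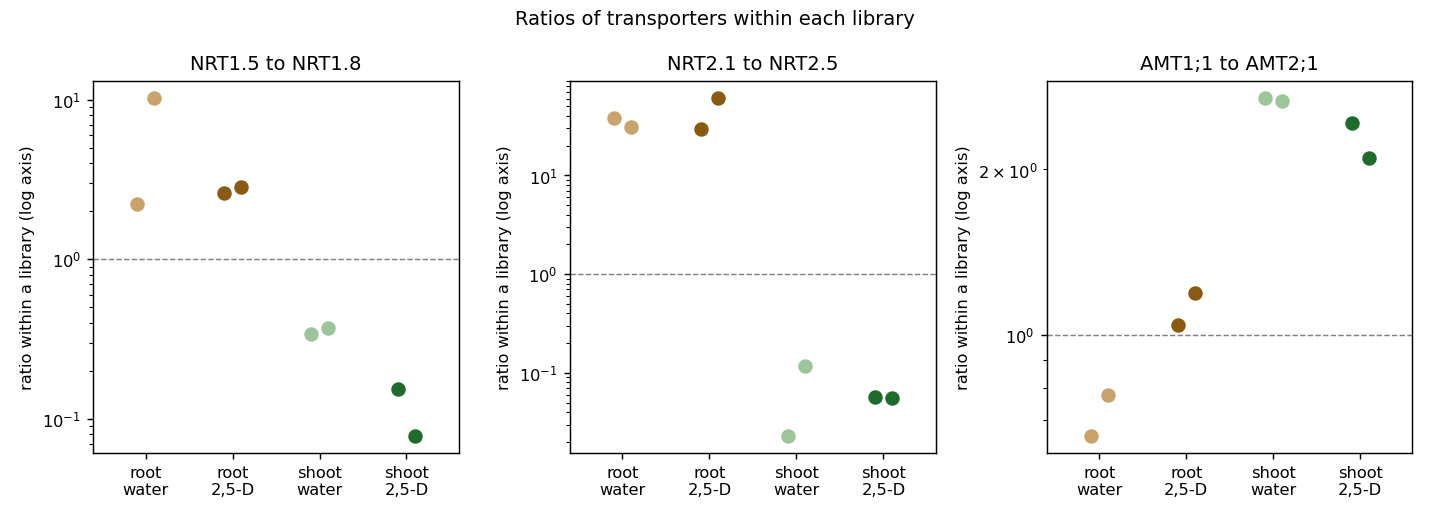
Ratios of the values of 2 transporters within each library, on a log axis, with a dashed line at 1; each point is a library. NRT1.5 to NRT1.8 and NRT2.1 to NRT2.5 are above 1 in every root library and below 1 in every shoot library, and AMT1;1 to AMT2;1 is above 1 except in root water.

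Relatives of the transporters and their regulators were read from lists. Of 53 NPF genes 9 were in the tables, and in root 2 were higher with 2,5-D, 5 lower and 2 did not pass; NRT1.5, NRT1.8 and NRT1.9 are among them, and of all genes tested in root 39% were higher and 22.5% lower. NPF2.4, which loads chloride into the root xylem, was at 10.67 and 9.17 in root water, at 1.97 and 2.79 with 2,5-D and at 0.14 or less in every shoot library, and it fell in root by 1.70 on the log2 scale (SE 0.18, adjusted p = 0.000147). NPF5.8 and NPF5.9 also fell in root (by 1.06 and 1.09). NPF4.3 (log2 change 1.09) and NPF2.10, a glucosinolate carrier (0.59), rose, and NPF8.4 did not pass (-0.21, adjusted p = 0.261). In water 6 of the 9 NPF genes were higher in root and 0 lower, beside 46.2% and 21.3% of all genes, a number of calls near the background of 67.5%. The tables held no other NRT2 or NRT3, CLC or SLAC-type channel, or AMT gene than the members (3 of 9, 2 of 12 and 2 of 6).

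Of 30 regulators of nitrate and ammonium transport 15 were in the tables, and in root 3 were higher with 2,5-D, 5 lower and 7 did not pass. The 8 calls of 15 are no more than the 61.5% of all genes called in root. MYB59, known to raise NRT1.5 transcription, was at 50.86 and 66.80 in root water and 13.11 and 13.73 with 2,5-D, while shoot water had 22.04 and 10.63 and treated shoot 9.42 and 10.95. It fell in root by 2.04 on the log2 scale (SE 0.18, adjusted p = 5.22e-05), and its shift between organs was -1.49 (adjusted p = 0.0469). Such a shift is not particular to MYB59. It passed for 4 of the 14 regulators tested and 4 of the 9 NPF genes, beside 33% of all genes tested. MYB59 had the highest adjusted p of these regulators. Among these NPF genes, NPF2.4 entered that fit through its root values. Its shift of -1.69 holds little beyond its root change of -1.70. CEPR1, the receptor of nitrogen-demand peptides, fell in root by 1.02. LBD37, a repressor of nitrate-responsive genes, fell by 1.08, TGA1, an activator of NRT2.1, by 0.76, and ERF104, a factor reported upstream of NRT1.8, by 1.2. CEPH, a phosphatase that activates the NRT2.1 protein, was at 0.15 and 0.16 in root water and at 1.83 and 2.53 with 2,5-D; it is among the 3, but it passed the filter through its treated libraries, so its call is conditioned on that difference. CBL1, a calcium sensor that partners the kinase CIPK23, rose by 0.98 and NIGT1.1, a repressor of NRT2.1, by 0.64, while CIPK23 itself did not pass (-0.31, adjusted p = 0.121). In shoot 0 of the 13 regulators tested and 0 of the 8 NPF genes tested passed in limma.

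**Figure D5:**
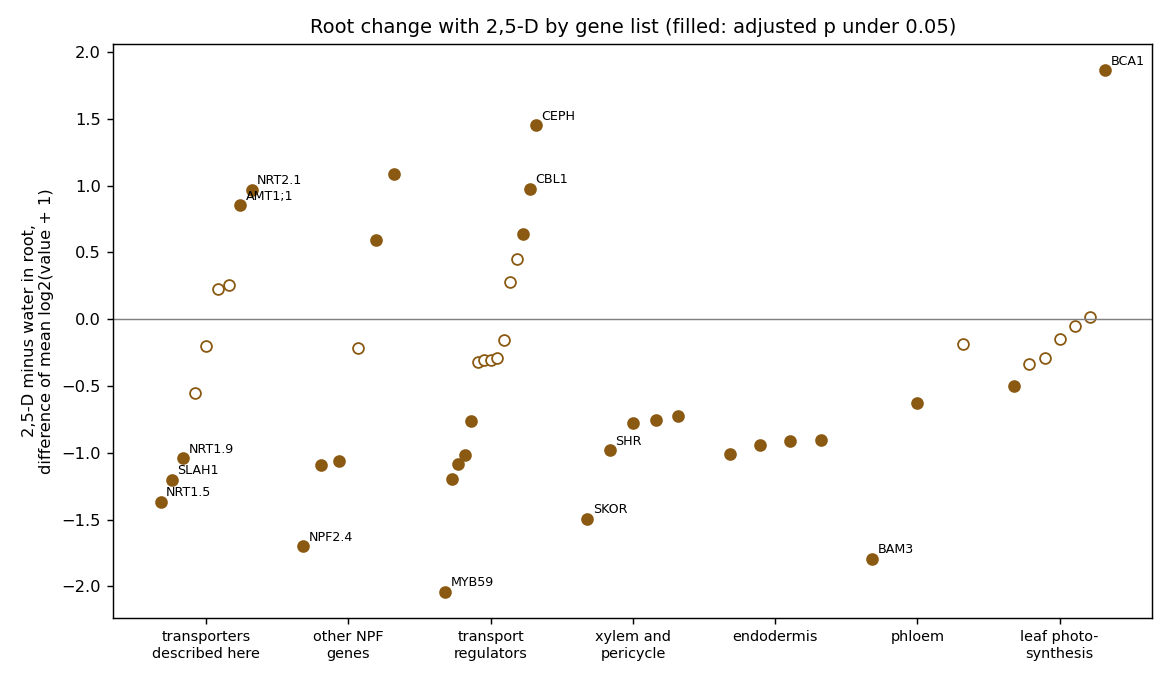
Change with 2,5-D in root of mean log2(value + 1) for genes of each list; each point is a gene, and filled points have an adjusted p under 0.05. All tested xylem and pericycle and all endodermis markers in the tables lie below 0, while transporters and regulators lie on both sides.

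The listed genes with the most similar profiles were found by the root-mean-square difference between log2(value + 1) profiles centred over the 8 libraries, leaving out genes whose mean was below 1. For NRT1.5 they were AT3G01260 (0.213) and PER64, a peroxidase of the Casparian strip (0.218). For NRT1.9 they were AT4G06744 (0.122) and AT1G72200 (0.128). For NRT2.5 they were ARCK1, a receptor-like cytosolic kinase (0.183), and PAP5, a purple acid phosphatase (0.275). Those of AMT1;1 were AT1G21670 (0.13) and MGD2, a galactolipid synthase (0.216), and those of AMT2;1 were AT5G49760 (0.116) and INV-E, an invertase (0.13). NRT2.1 was closest to AT1G80120 (0.128) and the clock-related factor BOA (0.156), and NRT2.6 to AT5G41800 and AT2G41830 (0.196 each). SLAH1 was closest to SKM2 (AT5G56040, 0.087) and PXC1 (AT2G36570, 0.107). The added 1 flattens the profile of a gene as low as SLAH1, so its small distances do not mean like fold changes. SKM2 went in root from 15.69 and 17.03 in water to 5.81 and 7.9 with 2,5-D, a smaller fold than that of SLAH1. Distances also depend on how strongly a profile varies. The nearest profiles were less close for SLAH3, with IP5PII (0.287) and BON3 (0.344), and for NRT1.8, with AT4G16563 (0.377) and AT1G61100 (0.385). Between the transporters themselves the closest pair was NRT1.5 and NRT1.9 (0.354), and the most distant was NRT1.5 and NRT2.5 (3.974). All these distances rest on the same 8 libraries and are given as a description.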

How the data were processed

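RNA was sequenced from 8 libraries. Per the submitters' processing notes, HISAT2 2.0.4 aligned the reads. No label, header or note used here names the build, annotation or quantifier. The authors deposited a normalized expression signal for each of 3691 genes, in a root table and a shoot table that list the same genes, with no unit in the headers. FPKM and TPM could not be told apart. All gene IDs matched RefSeq TAIR10.1, used for names and exonic lengths. Both 2,5-D columns of the shoot table are headed replicate 1 and are numbered here by their place, which only names them.

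Log2(value + 1) was tested with limma 3.58.1 (R 4.3.3) with a mean-variance trend, leaving out genes whose mean over the fitted libraries was below 1. Treatment was fitted within each table, and organ and organ-by-treatment contrasts over all 8 libraries. Calls are at a Benjamini-Hochberg adjusted p under 0.05 over all genes tested. The fits were also run on simulated data with normal noise and changes planted only in genes of higher level, which does not cover the low transporters. Intervals are at 95%. Values on the log2(value + 1) scale understate the change of low genes.

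Testing between tables was made conditional on low values lying on steps of 1 read per library. A step fitted on part of the low values placed 78.6% to 95.6% of the remaining ones within 0.1 of a whole number of reads, against 20% for a fixed step. The required share was 50%. With the first settings of the search, both root 2,5-D libraries fell short (21.1% and 11.8%, near or below that of a fixed step), and 1 shoot 2,5-D library held too few low values; the range of steps, lengths and reads was changed after seeing this. Total depth is unknown, and the estimated reads come from these steps.

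The 10 transporters and the gene lists were chosen with earlier results of these data known. Genes named are the 10, the list genes in the tables, and the 2 genes of most similar profile for each; the ratio of NRT1.8 to SLAH3 and that of NRT1.5 to the markers were added after their values were seen. Alternatives were a pseudocount of 0.1, no filter, equal library medians, no trend, weights per group, the fit of all 8 libraries, a replicate block, and leaving out each library.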

Additional observations from a re-analysis of the deposited data

Results flagged for a closer look

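The change with 2,5-D differed between root and shoot for 2 of 9 transporters by the test of that difference, beside 33% of all genes tested. For NRT1.9 the root change minus the shoot change was -0.87 on the log2 scale (adjusted p = 0.0499, limma), with means of 59.5 in water and 28.1 with 2,5-D in root and 4.85 and 4.19 in shoot. For NRT2.5 it was -1.38 (adjusted p = 0.0193), with means of 0.10 and 0.19 in root and 11.6 and 35.1 in shoot. Both calls were lost with a pseudocount of 0.1. That of NRT1.9 was also lost without the filter, without the trend, with equal medians and with weights per group (adjusted p = 0.0503 to 0.159). The NRT1.9 call was lost without any one of 6 libraries as well. That of NRT2.5 was also lost without root water replicate 2, either treated root library or shoot 2,5-D replicate 1 (shifts of -1.46 to -1.1). The NRT2.5 value in root rests on an estimated 2.1 to 6.9 reads per library.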

How the results depend on the processing

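In root the number of transporters higher with 2,5-D (2) was 1 in the fit of all 8 libraries and 1 to 4 with a library left out; all genes higher (1360) were 720 in that fit and 637 to 1610 with a library left out, and lower (783) 456 to 902. In shoot 0 were called; equal medians gave 1 transporter, 69 genes higher and 476 lower, the fit of all 8 libraries 3, 1101 and 588. With a shoot library left out, 0 to 5 transporters were higher, 0 to 1 lower, and 0 to 1620 genes higher and 0 to 860 lower. For the shift between organs, 2 transporters became 0 with a pseudocount of 0.1 and 1 with equal medians or no trend, and 0 to 5 with a library left out. Genes with a smaller change in root (812) were 211 with equal medians and 0 to 1306 with a library left out, and those with a larger change (375) 0 to 648. Genes higher in root water than shoot water (1665) were 1049 with equal medians. Transporters lower in root under 2,5-D (5) were 3 without any one treated library.

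With a library left out, root changes turned sign for NRT1.8 (-1.32 to 0.22) and SLAH3 (-0.90 to 0.50), both without water replicate 1, and for NRT2.6 (-0.10 to 0.61), without water replicate 2. The shift of NRT2.1 turned with a pseudocount of 0.1 (-0.33) and without shoot water replicate 2 (-0.27 to 0.70 over libraries left out), and NRT1.8 between organs in water without root water replicate 1 (-0.34 to 1.2); the cause was not tested. With 1 added to each value, the log2 ratio of NRT2.1 to NRT2.5 was 1.98 in root water, 2.84 in root 2,5-D, -2.85 in shoot water and -3.59 in shoot 2,5-D (5.09, 5.41, -4.28 and -4.15 before), and that of AMT1;1 to AMT2;1 in shoot water 1.41 (1.42). The replicate block in root gave 1393 genes higher and 792 lower, and the counts of transporters, 2 and 3, were the same; same-numbered root libraries did not deviate together (r = -0.049 over genes). No paired analysis was possible in shoot because both 2,5-D columns carry the same number. A left-out fit takes its spread from few libraries, so its p is a rough guide. Without a shoot water library the fit loses the spread of the least even pair, so calls gained there are not firmer. With 2 libraries a group and total depth unknown, NRT2.5 in root and NRT2.6 and SLAH1 in shoot are near the limit of detection.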
